A study of Mus musculus with 24 samples.

Results

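The genes described here are 34 genes that mark or specify classes of somatosensory neuron, the cells of the dorsal root ganglion (DRG) that carry touch, position, temperature, pain and itch from skin and muscle. They were chosen by name from a table of 45777 mouse genes, of which 33 carry the listed symbol and 1, Drgx, stands under its older symbol Prrxl1. Genes entered by their known identity, with no threshold on a measured value, although the list was drawn up with earlier results of these data known.

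The series holds polyA RNA sequencing of 24 libraries from female BALB/c mice of 6 weeks, 6 libraries in each of 4 groups, which are skin and DRG of control animals and skin and DRG of model animals. The model is a rosacea-like skin inflammation, made by injecting LL37, an antimicrobial peptide, into the dermis (320 μM, 40 μL, 2 times a day for 2 days). According to the description of the series, ganglia were taken on day 4 and gabapentin, an analgesic that binds a calcium channel subunit, was given by mouth from day 3 (100 mg/kg, 2 times a day). It does not say which animals received the drug, the sample labels name none, and what the control mice were injected with, which ganglia were taken and whether they supply the injected skin are not given in the sources used here. No label says whether libraries of a group come from separate animals, so p-values measure the spread between these libraries, which may be technical.

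As background, somatosensory neurons divide into large myelinated cells for touch and limb position and small, mostly unmyelinated cells for pain, itch, temperature and gentle stroking. Transcription factors such as those of the Prdm, Pou4f, Isl and Runx families set up the sensory fate and then its subtypes in the embryo. Each subtype keeps its own set of growth factor receptors, ion channels, peptides and filament proteins in the adult, and these are the genes by which the cells are told apart.

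Total counts ranged from 45238735 to 68396846 per library, and values are counts scaled to library size (CPM) with TMM factors of the tissue unless another unit is named. The tissue labels were checked against marker genes. The summed level of 5 keratinocyte markers was 9871 to 22886 CPM in control skin and 3.24 to 4.78 CPM in control DRG. DRG control 5 stood apart from the other ganglion libraries. Its summed level of 6 oligodendrocyte and astrocyte markers was 424 CPM, against 53.2 to 115 CPM in the other 11 DRG libraries. Gfap reached 267 CPM there against at most 41.7 CPM elsewhere, and Mog 11.8 CPM against at most 0.439 CPM. Of 5 markers of spinal motor neurons, 2 had enough counts to be tested in DRG, and Mnx1 was at 0 in this library. The sum of the 5 was 200 CPM, against 154 to 186 CPM in the other DRG libraries. It includes Isl2, which is also on the list of further sensory transcription factors below, so it does not measure motor neurons alone. Leaving out DRG control 5 moved the model-over-control difference of 5 of the 34 genes by more than 0.1 on the log2 scale (Sst, Whrn, Smr2, Tlx3 and Nppb), and for these both values are given below. The part these cells had in its values was not tested.

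In control ganglia the cytoskeletal genes lay at the top of the list and the rarer subtype markers at the bottom. On the scale that is corrected for gene length as well as library size (TPM), Nefl, the light neurofilament chain, had a mean of 2524 ± 366 TPM (SD, n = 6). Nefm, the medium chain, followed with 1805 ± 331 TPM, Prph, the peripherin filament of small-diameter neurons, with 1624 ± 188 TPM, and Nefh, the heavy chain, with 952 ± 112 TPM. Avil, which encodes the actin regulator advillin and is widely used to mark sensory neurons, had 645 ± 41.3 TPM. These 5 genes were the most abundant of the 34. Next stood P2rx3, the ATP-gated channel of non-peptidergic nociceptors, with 276 ± 26.0 TPM, and Ret, the signalling receptor of the GDNF family ligands, with 239 ± 21.0 TPM. The lowest levels were those of Slc17a8, a vesicular glutamate transporter of touch-sensitive C fibres, with 2.77 ± 0.573 TPM, and Runx3, a transcription factor of proprioceptors, with 3.44 ± 0.573 TPM. Of the 33 pairs of neighbours in this order, 25 had overlapping ranges over the 6 control libraries. The other 8 were separated, among them Prph above Nefh, Nefh above Avil, Avil above P2rx3 and Whrn above Runx3.

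**Figure D1:**
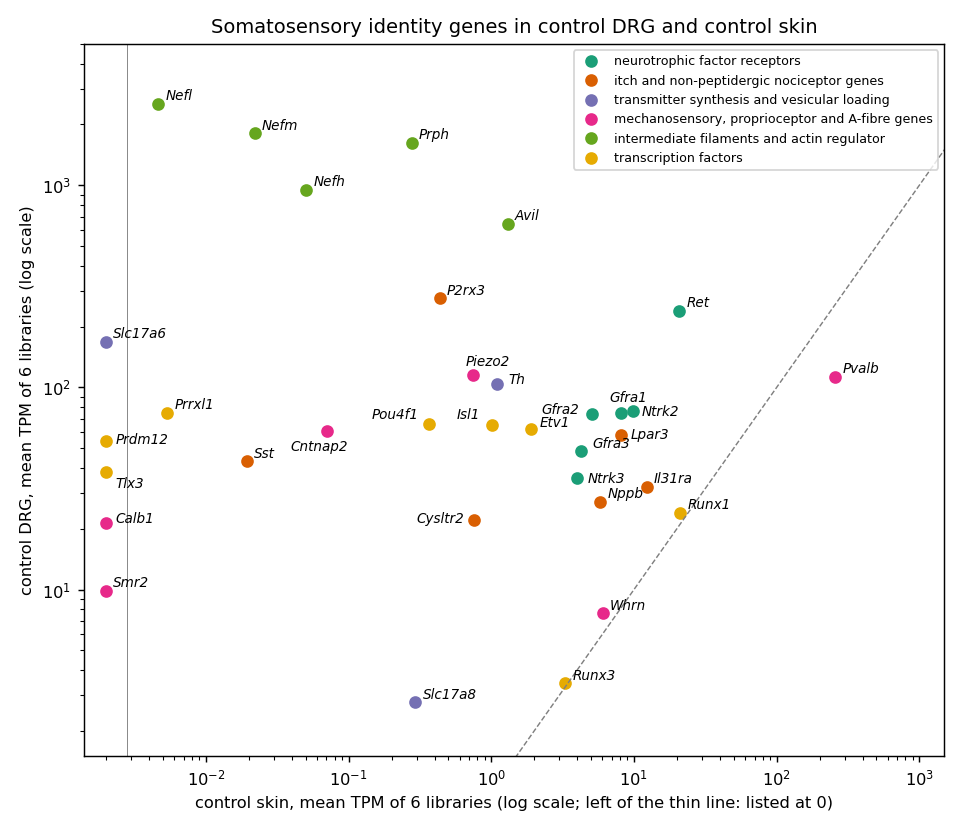
Mean TPM of each of the 34 genes in 6 control DRG libraries (vertical axis) against 6 control skin libraries (horizontal axis), both on log scales, coloured by role. The dashed line marks equal levels, genes left of the thin vertical line were listed at 0 in control skin, and Prrxl1 is Drgx. Nefl, at 2524 TPM in DRG, lies highest, while Pvalb lies right of the dashed line and Runx1, Runx3 and Whrn lie close to it.

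Against control skin, 30 of the 34 genes were higher in control DRG and 1 was lower (edgeR's quasi-likelihood test, Benjamini-Hochberg adjusted p under 0.05). Over all genes tested, 41.3% were higher and 42% lower in this comparison. In bulk tissue, fewer cells of a type and less RNA per cell cannot be told apart, here and in all that follows. Slc17a6, the vesicular glutamate transporter of most sensory neurons, averaged 299 CPM in control DRG and had no count in control skin, at least 31906-fold higher when set against a floor of 3 counts over the 6 skin libraries. The same bound was at least 13551-fold for Prdm12, a regulator of the nociceptor lineage, 2740-fold for Calb1, the calcium-binding protein calbindin, 2611-fold for Tlx3, a homeobox factor of sensory neurons, and 318-fold for Smr2, a marker of a subset of myelinated nociceptors. These 5 genes were at 0 in all control skin libraries, and 4 of them, all but Slc17a6, were at 0 in the 6 model skin libraries too, where Slc17a6 had 5 counts in all. The floor equals 0.00936 CPM and covers counting error only.

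Sst, the itch-related peptide somatostatin, had 3 counts in 1 control skin library, and its level in control DRG was 1217 times that in control skin (95% exact counting interval 416 to 5901). DRG control 5 alone held 2044 of the 3844 Sst counts in control DRG, and each other control held 285 to 480, so that library raises the ratio. The interval covers counting error only, not this spread between libraries. Nefl had 2 counts and Prrxl1 4 counts in control skin. The smallest differences among the 30 were those of Il31ra, a cytokine receptor subunit of itch neurons, 2.26-fold, and Nppb, a natriuretic peptide that acts as an itch transmitter, 3.26-fold.

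Pvalb, the calcium buffer parvalbumin of proprioceptors and of fast skeletal muscle, was the exception. In control DRG it spanned 33.5 to 60.8 CPM with a median of 41.5, and in control skin 50.3 to 283 CPM with a median of 90.4. The difference on the log2 scale was -1.36 (SE 0.58, edgeR adjusted p = 0.0333). Within skin its level moved with 5 skeletal muscle markers: it was highest in skin control 2 (283 CPM) and skin model 4 (418 CPM), whose muscle sums were 9352 and 9571 CPM, and lowest in skin model 2 (13.5 CPM), whose muscle sum was 977 CPM. The call was lost when skin control 2 or 4 or DRG control 1, 3, 5 or 6 was left out, with differences between -1.52 and -0.89 over all 24 single omissions. Whrn, Runx1 and Runx3 did not differ beyond the spread, with log2 differences of 0.13 (95% interval -0.23 to 0.50), -0.04 (-0.27 to 0.20) and -0.18 (-0.51 to 0.15), and the sign of each changed in another analysis or without 1 library.

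Promoter sequence of 4 of the genes is shown, as RefSeq gives it for GRCm38.p6, 5′ to 3′ on the strand of the gene. RefSeq's table held 31 promoters for 24 of the 34 genes. Sst and Smr2 are genes for which DRG control 5 lay far from the other control ganglia, Th is the only one whose response was called lower in skin than in DRG, and Tlx3 stands for the factors with no count in skin. For Th (chr7:142899996-142900245, minus strand), Smr2 (chr5:88086306-88086555, plus strand) and Tlx3 (chr11:33203589-33203838, minus strand) these are the 250 bases before the start of the gene. The start that the table uses for Sst lies 498 bases inside the RefSeq span of the gene, so only 30 bases around the motif are shown (chr16:23890874-23890903, minus strand). Capitals mark the cyclic AMP response element TGACGTCA in Sst and Th, the AP-1 motif TGANTCA in Smr2 and every CG in Tlx3.
Sst: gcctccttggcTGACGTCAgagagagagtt
Th: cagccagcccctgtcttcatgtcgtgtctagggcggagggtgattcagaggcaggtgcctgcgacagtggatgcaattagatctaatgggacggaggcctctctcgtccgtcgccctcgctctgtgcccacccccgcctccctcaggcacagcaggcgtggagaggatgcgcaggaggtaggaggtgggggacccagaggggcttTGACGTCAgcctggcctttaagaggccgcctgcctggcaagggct
Smr2: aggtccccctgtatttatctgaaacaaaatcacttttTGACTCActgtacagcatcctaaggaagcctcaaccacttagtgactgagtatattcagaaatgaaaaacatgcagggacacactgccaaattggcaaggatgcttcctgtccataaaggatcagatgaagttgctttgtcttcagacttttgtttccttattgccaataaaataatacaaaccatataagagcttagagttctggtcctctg
Tlx3: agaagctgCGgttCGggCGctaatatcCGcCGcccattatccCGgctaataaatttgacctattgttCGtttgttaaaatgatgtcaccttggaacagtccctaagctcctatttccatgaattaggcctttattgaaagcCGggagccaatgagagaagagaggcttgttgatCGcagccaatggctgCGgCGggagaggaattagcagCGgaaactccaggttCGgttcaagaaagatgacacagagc
Searched on both strands of windows of 300 bases (250 before to 50 after the start), TGACGTCA was found in 2 of the 31 promoters and in 1.79% of 32851 mouse promoters. It begins 48 bases before the start used for Sst and 45 bases before that of Th. TATAAA, the TATA box, was found in 3 of the 31 (Etv1, Nppb and Prph) and in 13.6% of all promoters. TGTGGT, the core of the RUNX motif, was found in 6 of the 31 and in 16.8%. TGANTCA was found in 2 of the 31 (Smr2 and Th) and in 7.81%, and its match in Th is left in lower case above. No match of one motif overlapped another in the sequences shown. The 31 promoters held a median of 12 CG pairs against 7 over all promoters. The 11 promoters of transcription factors had a median of 17 CG pairs and the 5 of itch and non-peptidergic nociceptor genes a median of 7. Smr2, an A-fibre gene, had 0. A match describes the letters in the window and was not tested for binding.

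The question of the main comparison is whether the skin inflammation changed the identity genes of the ganglion neurons. None of the 34 genes passed the test in DRG, higher or lower (edgeR's quasi-likelihood test on counts, 19509 genes tested, adjusted p under 0.05). Over all genes, 0.0974% were called, 19 higher and 0 lower, so few genes of any kind passed. At an unadjusted p under 0.05, 1 of the 34 was found, Sst, against 9.34% of all genes. DESeq2 called 0 of the 33 to which it gave an adjusted p (Sst had none), and limma on log2 TPM called 0 of the 34. No gene of the list separated the 6 model from the 6 control libraries, against 0.528% of all genes tested. The log2 differences ran from -1.08 to 0.11 with a median of -0.01, the same as over all genes (-0.01), and 13 were above 0 and 21 below. The median of the absolute differences was 0.04 for the list and 0.09 for all genes tested. The list was not matched to all genes by expression level, so these medians do not show that identity genes vary less.

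The intervals show how much change these libraries leave room for. For 32 of the 34 genes the 95% interval of the difference lay within 1.5-fold in either direction, and for 25 of them within 1.25-fold. The exceptions at 1.5-fold were Sst (-2.04 to -0.12 on the log2 scale) and Nppb (-0.64 to 0.08). Standard errors ran from 0.05 to 0.44 with a median of 0.09. In simulated counts with the spread of these 12 libraries, the test recovered 32% of genes changed by 1.25-fold, 72% of those changed by 1.5-fold and 98% of those changed by 2-fold. The simulation changed only genes above a minimum mean count and had 161 calls, against 19 in the data. More calls ease the adjusted threshold, so these shares may be too high for the data. The coefficient of variation between libraries had a median of 12.9% in control and 8.56% in model ganglia. The control figure includes DRG control 5, which was at one end of the range for 21 of the 34 genes. The part of that library in the gap was not tested.

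**Figure D2:**
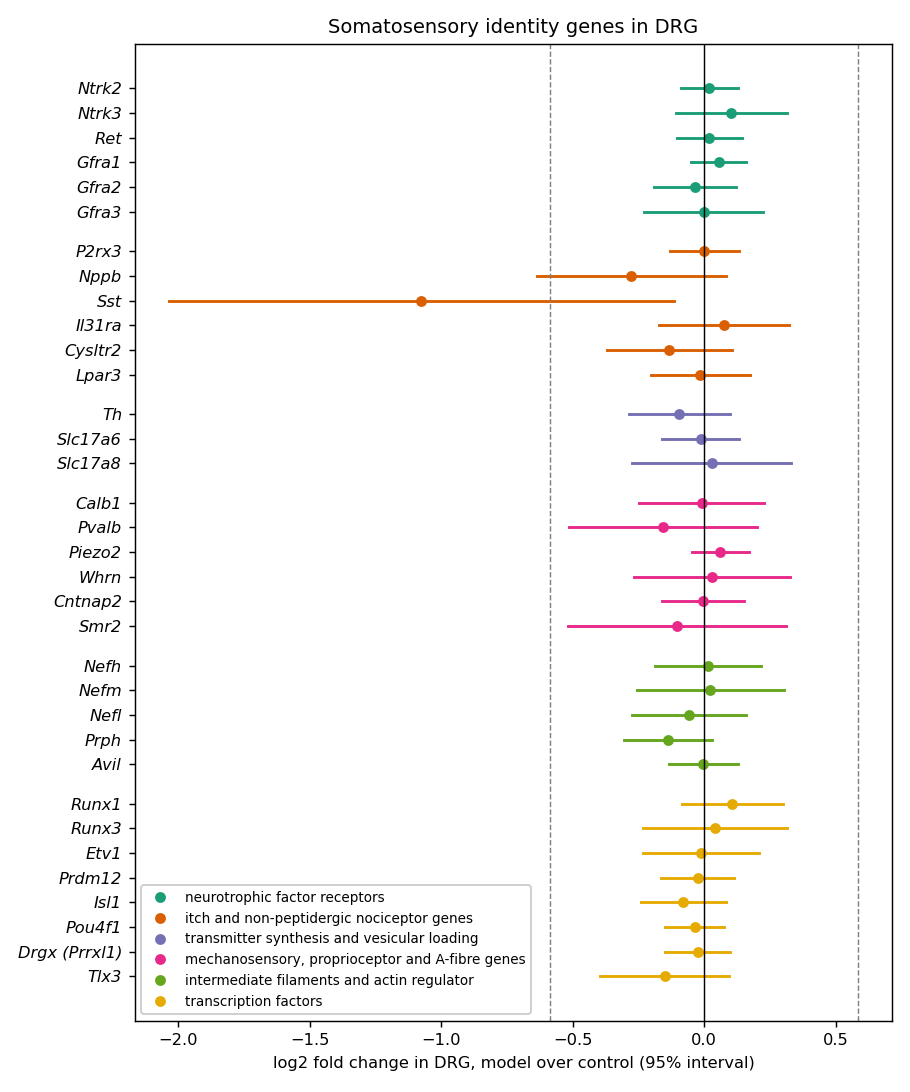
Log2 fold change of each of the 34 genes in model over control DRG (points) with 95% intervals (bars), from edgeR on 6 against 6 libraries, coloured and grouped by role. Dashed lines mark 1.5-fold in either direction. All intervals but those of Sst and Nppb lie between the dashed lines.

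All 6 receptors for neurotrophic factors had intervals within 1.25-fold. Ntrk2, the BDNF receptor of touch-sensitive fibres, had a median of 249 CPM in control and 256 CPM in model DRG, a difference of 0.02 (SE 0.05). Ret spanned 610 to 749 CPM with a median of 693 in control and 649 to 758 CPM with a median of 678 in model DRG. Its co-receptors for GDNF, neurturin and artemin, Gfra1, Gfra2 and Gfra3, differed by 0.05, -0.03 and -0.0025 on the log2 scale, and Ntrk3, the neurotrophin receptor of proprioceptors, by 0.10 (SE 0.10). The groups overlapped for all 6.

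Itch and non-peptidergic nociceptor genes were the only role with intervals beyond 1.5-fold. Sst (chr16:23889573-23891342, GRCm38.p6) spanned 5.42 to 32.3 CPM with a median of 6.47 in control DRG, and 4.57 to 6.36 CPM with a median of 4.85 in model DRG. A single library, DRG control 5, held the value of 32.3 CPM, the other controls reached at most 7.53 CPM, and the groups overlapped. The difference was -1.08 (SE 0.44, edgeR adjusted p = 0.51). Without DRG control 5 it was -0.32 (SE 0.11, edgeR adjusted p = 0.28), higher in the controls but not past the threshold in either case. Nppb spanned 5.56 to 10.9 CPM in control and 6.01 to 9.98 CPM in model DRG, a difference of -0.28 (SE 0.17). Here DRG control 5 was the lowest library, and without it the difference was -0.38 (SE 0.14, edgeR adjusted p = 0.30). P2rx3 differed by 0.0007 (SE 0.06) at a mean of 469 CPM in both groups. Cysltr2, a leukotriene receptor of itch neurons, differed by -0.13, Il31ra by 0.08 and Lpar3, a lysophosphatidic acid receptor, by -0.02.

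Genes of transmitter synthesis and loading stayed within 1.5-fold. Th, which makes the catecholamine precursor and marks touch-sensitive C fibres, spanned 63.2 to 80.5 CPM with a median of 76.8 in control and 59.3 to 88.6 CPM with a median of 67.6 in model DRG, a difference of -0.09 (SE 0.09). Slc17a6 differed by -0.01 and Slc17a8 by 0.03. The groups overlapped for these 3 genes.

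Among genes of touch, position sense and A fibres, Piezo2, the mechanically gated channel (chr18:63010213-63387716), had the smallest p of the genes above 0 in the list. It spanned 476 to 558 CPM with a median of 503 in control and 504 to 569 CPM with a median of 530 in model DRG. The ranges overlapped, and the difference was 0.06 (95% interval -0.05 to 0.17, edgeR adjusted p = 0.72), about 1.04-fold. Smr2 differed by -0.10 (SE 0.19), or -0.25 without DRG control 5, and Whrn, a scaffold protein of proprioceptors, by 0.03, or 0.19 without it. Pvalb differed by -0.16 (SE 0.17), Calb1 by -0.01 and Cntnap2, an adhesion protein of the myelinated axon, by -0.0034.

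The filament genes were the most abundant and differed little. Prph (chr15:99053579-99058978) spanned 1169 to 1603 CPM with a median of 1250 in control and 1062 to 1307 CPM with a median of 1188 in model DRG. The ranges overlapped, DRG control 5 held the highest value, and the difference was -0.14 (SE 0.08, edgeR adjusted p = 0.60), or -0.07 without that library. Nefh, Nefm and Nefl differed by 0.01, 0.02 and -0.06 and Avil by -0.0041. Between libraries the 3 neurofilament genes were high and low in the same places. Nefm reached 2862 CPM in DRG control 4, 3037 CPM in DRG control 5 and 2907 CPM in DRG model 1, and was lowest, at 1871 CPM, in DRG model 4. Nefh and Nefl were also lowest in DRG model 4, at 1255 and 2765 CPM.

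Transcription factors of sensory identity were likewise within 1.5-fold, 7 of the 8 within 1.25-fold. Runx1, which directs the non-peptidergic nociceptor fate (chr16:92601466-92826074), spanned 53.6 to 83.2 CPM with a median of 67.3 in control and 66.6 to 82.3 CPM with a median of 72.5 in model DRG. The ranges overlapped, and the difference was 0.11 (SE 0.09, edgeR adjusted p = 0.73), or 0.05 without DRG control 5. Runx3 differed by 0.04, Etv1, a factor of proprioceptors, by -0.01, Prdm12 by -0.02, Isl1 by -0.08, Pou4f1 by -0.04 and Drgx (as Prrxl1) by -0.03, the last 3 being homeobox factors of the general sensory programme. Tlx3 had the largest difference of the 8, -0.15 (SE 0.11), and its highest value, 32.4 CPM, was that of DRG control 5. Without that library Tlx3 differed by -0.04, and Isl1 (-0.12) and Runx3 (0.12) by more.

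**Figure D3:**
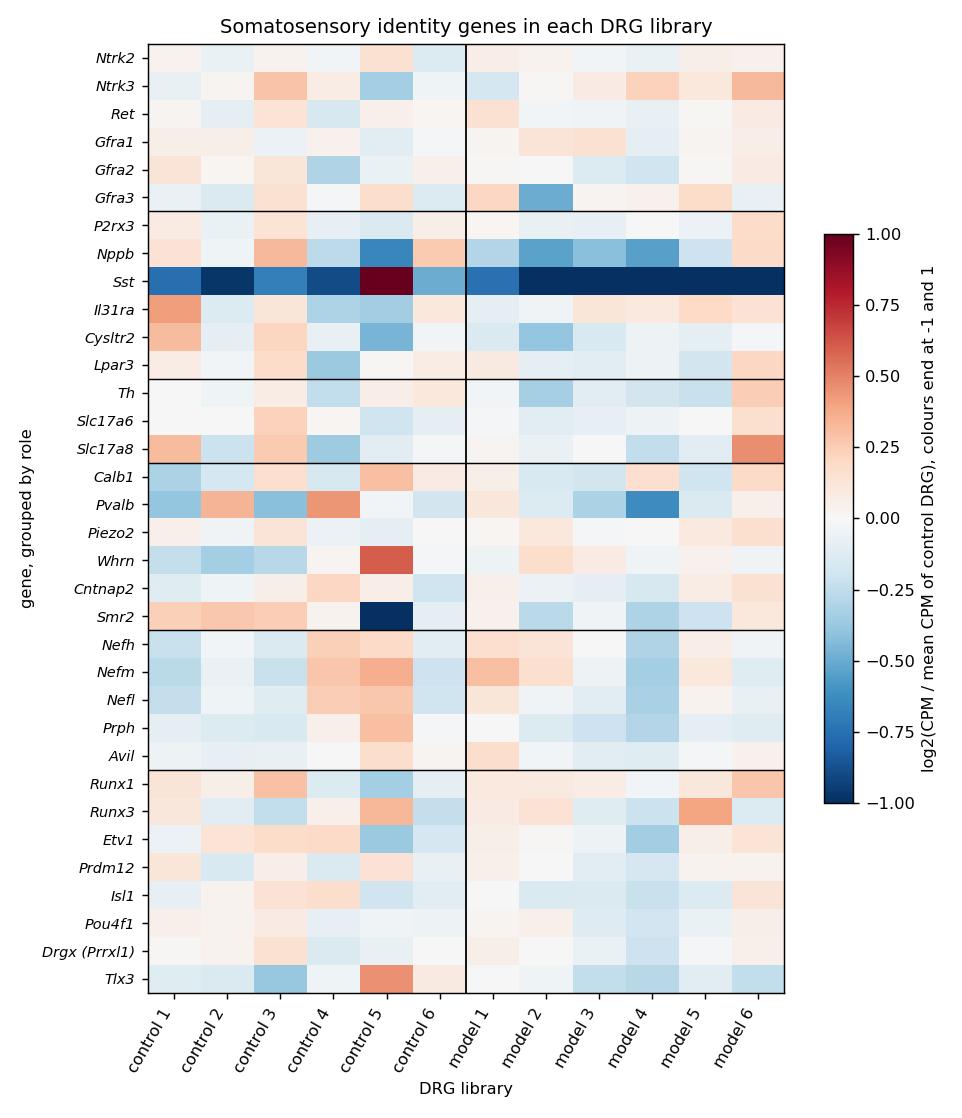
Log2 ratio of each gene's CPM to its mean in control DRG (colour, from -1 in blue to 1 in red) in the 6 control and 6 model DRG libraries, with genes in rows by role. No block of genes separates the groups. The column of DRG control 5 holds the strongest colours, with Sst high and Smr2 low, and most other cells of the Sst row are blue because that library raises the control mean.

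Among the 12 DRG libraries, DRG control 5 held the highest value of 10 genes and the lowest value of 11, so it was at one end of the range for 21 of the 34. DRG model 4 followed, lowest in 10 and highest in 0, and then DRG control 4, at one end for 9. The Smr2 level of DRG control 5, 1.37 CPM, compared with 2.76 to 3.55 CPM among the remaining control ganglia. Its Whrn level was 19.2 CPM, where the remaining controls spanned 9.96 to 12.8 CPM, and its Cysltr2 level 13.7 CPM, where they spanned 17.7 to 23.5 CPM. When DRG control 5 was left out, 0 of the 34 genes passed in edgeR, and 5 of the 34 had an unadjusted p under 0.05, against 13.2% of all genes in that fit. Nppb, Sst, Cysltr2 (-0.21) and Smr2 (-0.25) lay lower in model DRG and Whrn (0.19) higher. Their edgeR adjusted p-values were 0.28 to 0.37.

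**Figure D4:**
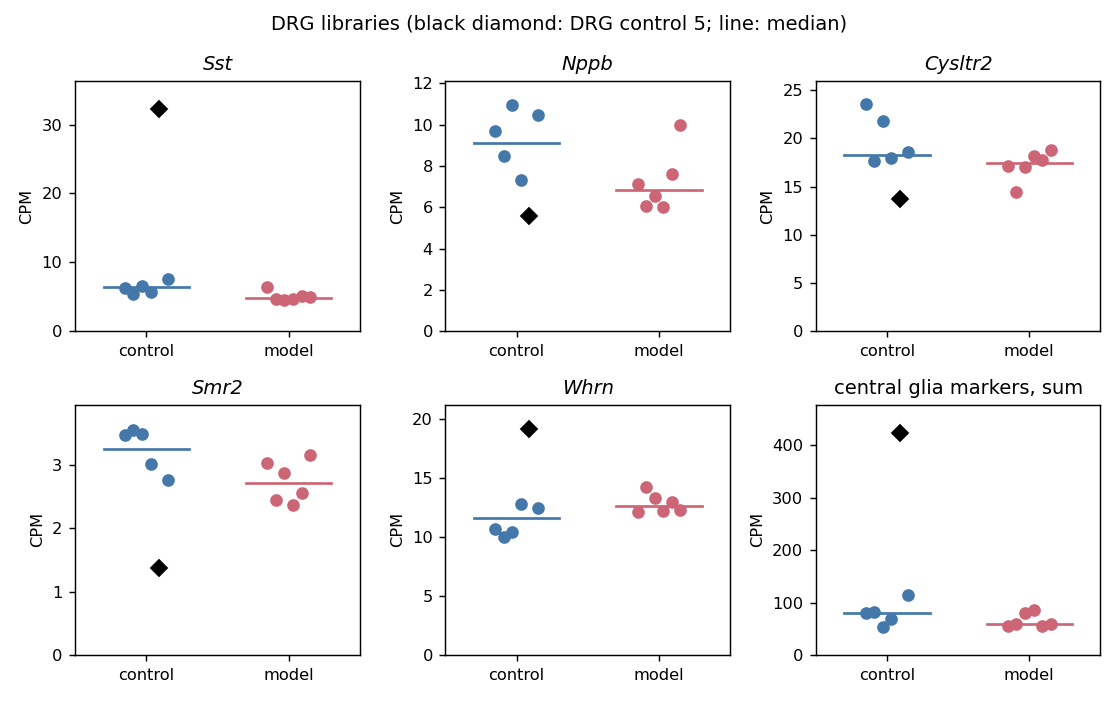
CPM of Sst, Nppb, Cysltr2, Smr2 and Whrn in each DRG library, with control left and model right. The panel titled central glia markers gives the summed CPM of 6 oligodendrocyte and astrocyte markers. Of these 6, 3 had enough counts to be tested in DRG. Black diamonds are DRG control 5 and lines are group medians, that library included. DRG control 5 is the highest library for Sst (32.3 CPM), Whrn (19.2 CPM) and the marker sum (424 CPM), and the lowest for Nppb, Cysltr2 and Smr2.

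Other lists of ganglion genes, drawn up by cell type and function with earlier results of these data known, were set beside the identity genes. Of 28 further subtype markers 0 were called, with a median difference of -0.06. In that list 1 gene, Nts, the peptide neurotensin, had an unadjusted p under 0.05, at 5.12 to 8.27 CPM in control and 9.33 to 11.2 CPM in model DRG (0.62, edgeR adjusted p = 0.078). The 2 groups did not overlap, as in 0.528% of all genes tested. Nts was called higher by DESeq2, by limma on log2 TPM, and by edgeR without DRG control 5 (adjusted p = 0.0116). Over all genes tested in DRG, 0.0974% were called and 9.34% had an unadjusted p under 0.05. Of 20 further sensory transcription factors 18 were tested, 0 were called and 2 had an unadjusted p under 0.05. Of 14 pan-neuronal genes 0 were called, 0 had an unadjusted p under 0.05, and 13 lay below 0, with a median of -0.06. Of 12 satellite glia and Schwann cell markers 0 were called and 2 had an unadjusted p under 0.05, with a median of -0.12. DESeq2 and limma also called 0 genes of the transcription factor, pan-neuronal and glial lists.

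Of 14 genes of the response to axon injury, 7 rose in the same libraries and 0 fell, and the list's median was 0.76. Over all genes 0.0974% were called higher and 0% lower. This list too was drawn up with earlier results of these data known, so its calls give no independent support. Atf3, the transcription factor induced in injured sensory neurons, spanned 4.19 to 6.88 CPM with a median of 6.02 in control and 24.1 to 38.9 CPM with a median of 31.3 in model DRG. Every model library lay above every control, a difference of 2.46 (SE 0.14, edgeR adjusted p = 1.62e-06). Sprr1a, a small proline-rich protein of regenerating axons, had medians of 0.148 and 22.2 CPM, and Gpr151, an orphan receptor induced by nerve injury, 1.58 and 5.93 CPM. Both rose (6.25 and 2.02, edgeR adjusted p = 0.00032 each), and neither overlapped between the groups. Over all genes tested, 0.528% did not overlap. Gal, Gadd45a, Flrt3 and Sox11 were the other 4 called. DESeq2 called 8 of these genes and limma 6 under either pseudocount. The difference between the injury list and the identity genes was not tested.

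Skin holds the endings of these neurons but not their cell bodies, and 23 of the 34 genes had enough counts there to be tested. In model against control skin 5 of the 23 were called higher and 0 lower (edgeR's quasi-likelihood test, adjusted p under 0.05). Over all 19526 genes tested, 14.1% were called higher and 5.82% lower. At an unadjusted p under 0.05 there were 7 of 23, against 35.4% of all genes, and DESeq2 called 5 higher and 2 lower. The 11 not tested include the 3 neurofilament genes, Slc17a6, Cntnap2 and the 4 genes with no count in any skin library.

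Gfra2, the neurturin co-receptor (chr14:70890107-70979840), spanned 7.90 to 9.07 CPM with a median of 8.30 in control and 11.5 to 17.8 CPM with a median of 13.7 in model skin. All 6 model libraries lay above all 6 controls, and it was the only gene of the list so separated, against 8.69% of all genes tested. It rose by 0.73 on the log2 scale (SE 0.11, edgeR adjusted p = 0.00119), or 1.66-fold. Gfra2 was also the only member called in all 12 fits that left out 1 library. It was called in all 10 alternative analyses, as were Runx3 and Etv1.

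Runx3 spanned 4.75 to 8.42 CPM with a median of 5.42 in control and 6.60 to 13.5 CPM with a median of 9.38 in model skin. Etv1 spanned 3.57 to 6.93 CPM with a median of 4.54 in control and 6.33 to 12.1 CPM with a median of 8.30 in model skin. The groups overlapped for both, and they rose by 0.69 (SE 0.18, edgeR adjusted p = 0.0207) and 0.77 (SE 0.21, edgeR adjusted p = 0.0266). Of the 12 fits that left out 1 library, 9 kept the call of Runx3 and 7 that of Etv1.

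Cysltr2 spanned 0.589 to 0.936 CPM with a median of 0.846 in control and 0.709 to 1.63 CPM with a median of 1.47 in model skin. Ntrk2 spanned 26.0 to 41.3 CPM with a median of 36.3 in control and 33.8 to 60.8 CPM with a median of 51.7 in model skin. Both overlapped between groups and passed narrowly, with 0.71 (SE 0.22, edgeR adjusted p = 0.043) and 0.49 (SE 0.16, edgeR adjusted p = 0.046). Of the 12 fits that left out 1 library, 3 kept the call of Cysltr2 and 5 that of Ntrk2. Th lay the other way, at 0.222 to 1.91 CPM with a median of 0.881 in control and 0.111 to 0.791 CPM with a median of 0.238 in model skin, and did not pass (-1.48, SE 0.53, edgeR adjusted p = 0.067).

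Markers of several cell types of skin moved in the same comparison, in which 14.1% of all genes were called higher and 5.82% lower. All 6 macrophage and leukocyte markers rose, and their sum was 155 to 382 CPM in control and 578 to 1649 CPM in model skin. Of endothelial markers 4 of 5 rose, with sums of 89.2 to 135 CPM and 140 to 304 CPM, and of fibroblast markers 3 of 6, with sums of 4567 to 9515 CPM and 9299 to 16211 CPM. All 5 adipocyte markers rose, with sums of 1041 to 1276 CPM and 1203 to 9665 CPM, and 3 of 5 melanocyte markers fell, with sums of 30.1 to 830 CPM and 24.6 to 95.3 CPM. For the melanocyte list the call depended on the tool, with 5 lower in DESeq2 and 0 in limma under either pseudocount. Red blood cell markers were called higher in 4 of 5. So were 1 of 12 satellite glia and Schwann cell markers and 1 of 4 Merkel cell markers tested. Keratinocyte and skeletal muscle markers were called in 0 of 5 each. The sum of 14 pan-neuronal genes was 239 to 282 CPM in control and 241 to 280 CPM in model skin. Of the 10 pan-neuronal genes tested edgeR called 4 higher and 0 lower, DESeq2 4 higher and 3 lower, and limma 5 higher and 0 lower. Of the identity genes, Prdm12, Tlx3, Calb1 and Smr2 were at 0 in all 12 skin libraries. Others had counts in each of the 6 control skin libraries, among them Piezo2 (1272 in all), Avil (657) and P2rx3 (402). The part of these cell types in the 5 increases was not tested.

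The number of calls in skin depended on single libraries. It was 1, Gfra2, without skin control 3, 5 or 6, it was 2 without skin model 1, and 3 without skin control 4, skin model 3 or skin model 4. Leaving out skin control 2 gave 2 genes called lower, Gfra3 and Ret, and leaving out skin control 5 or skin model 5 gave 1, Th. Skin control 2 held Ret at 23.5 CPM, where the remaining controls spanned 66.4 to 92.0 CPM, together with the highest keratinocyte and muscle sums of the control skin libraries (22886 and 9352 CPM).

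**Figure D5:**
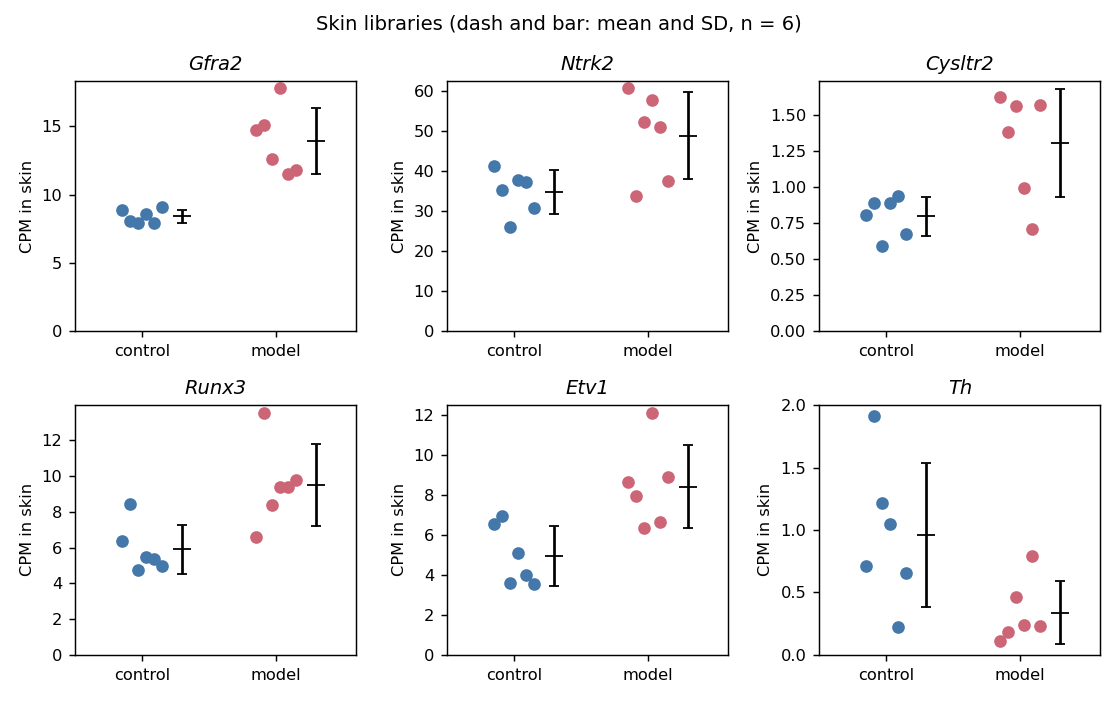
CPM of the 5 genes called higher in model skin and of Th in each skin library, with control left and model right. Dashes and bars give the mean and SD of 6 libraries. The groups are fully separated for Gfra2 alone, whose model libraries span 11.5 to 17.8 CPM above controls of 7.90 to 9.07 CPM.

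The response in skin was set against that in DRG in 1 fit of all 24 libraries, over 17251 genes tested in both tissues. Of the 23 identity genes tested, 3 had a higher difference in skin than in DRG and 1 a lower one. Over all genes 10.6% were called higher and 6.43% lower. The responses of each tissue given here come from this fit. Gfra2 differed by 0.72 (SE 0.13, edgeR adjusted p = 0.000655), with 0.68 in skin and -0.04 in DRG. Cysltr2 differed by 0.79 (SE 0.24, edgeR adjusted p = 0.024), with 0.65 in skin and -0.14 in DRG, and Etv1 by 0.74 (SE 0.23, edgeR adjusted p = 0.0313), with 0.72 in skin and -0.02 in DRG.

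Th was the gene called lower, by -1.38 (SE 0.47, edgeR adjusted p = 0.0446), with -1.48 in skin and -0.10 in DRG. Its call was lost in 20 of the 24 fits that left out 1 library, where the difference ran from -1.86 to -1.05. It was kept only without skin control 5, skin control 6, skin model 3 or skin model 5. Gfra2 was called in all 24, Cysltr2 in 23 (not without skin control 3) and Etv1 in 19 (not without skin control 3, 5 or 6, DRG control 3 or skin model 4). Of the 9 alternative analyses, Gfra2 was called in 9, Etv1 in 7, Cysltr2 in 5 and Th in 4. Runx3 and Ntrk2, which rose in skin, were not called in this comparison (0.61 and 0.43, edgeR adjusted p = 0.063 and 0.083).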

How the data were processed

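PolyA RNA was sequenced from skin and DRG of control and model mice, and sample titles gave the groups. Reads were handled with HISAT2 2.1.0, StringTie 2.1.3b, Trimmomatic and bcl2fastq 2.20.0 on GRCm38/mm10, per the submitters' processing notes. The counting step, strand setting and filters are not given in the sources used here, so reads of overlapping or antisense genes cannot be told apart. The authors deposited read counts per gene, not normalized, with FPKM and TPM values (the authors' scaling to length and library size). FPKM values were not used, and deposited TPM values served for levels between genes and for the limma alternatives.

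Counts of the 12 libraries of a tissue were fitted with edgeR 4.0.16 in R 4.3.3, using filterByExpr, TMM factors, robust quasi-likelihood dispersions and the F test. All 24 libraries were fitted together for the tissue difference and for control DRG against control skin. P-values were adjusted by Benjamini-Hochberg over all genes tested and called under 0.05. Folds and floors of DRG against skin, and the Slc17a6 mean given with them, use 1 set of TMM factors for all 24 libraries. The Pvalb ranges and the marker sums use factors of each tissue. For genes at 0 the floor was 3 counts over the group. The tests were tried on simulated counts with known changes. Alternatives were DESeq2 1.42.0, limma 3.58.1 on log2(TPM + 1) and log2(TPM + 0.1), other scaling, filters and dispersions, a replicate block, and leaving out each library. No 2 libraries of a group agreed within sampling noise (60 pairs, chi-square per gene at least 9.13).

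The 34 genes, the other lists and the markers were chosen with earlier results of these data known. Genes with values in full were named by a rule: in DRG called genes and, of those not called, 2 per direction by smallest p, in skin up to 6 called, in the tissue difference up to 4 per direction, and up to 3 called genes of each other list per direction. Others, such as Nppb, Nts and the genes that set DRG control 5 apart, were named after their values were seen. Gene positions and promoters come from RefSeq (GRCm38.p6).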

Additional observations from a re-analysis of the deposited data

Results flagged for a closer look

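In 114 sets of 6 values (a gene in a group), 15 held 1 library farther from the others than Dixon's 95% limit allows, and chance alone flags about 1 in 20 such sets. Of these 15, 3 fell on DRG control 5: Sst at 32.3 CPM (other controls 5.42 to 7.53), Whrn at 19.2 CPM (9.96 to 12.8) and Smr2 at 1.37 CPM (2.76 to 3.55). DRG model 6 was the highest model library for P2rx3 at 534 CPM (442 to 476 in the others), Slc17a6 at 327 CPM (271 to 292) and Slc17a8 at 6.88 CPM (4.21 to 5.09). DRG model 1 was highest for Sst at 6.36 CPM (4.57 to 5.07).

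In skin, control 2 was set apart for Ret at 23.5 CPM (66.4 to 92.0), Pvalb at 283 CPM (50.3 to 132), Avil at 3.72 CPM (1.18 to 2.098) and Isl1 at 2.78 CPM (0.578 to 1.32). Skin control 4 was lowest for Ntrk3 at 7.03 CPM (8.31 to 8.99). Skin model 4 was highest for Gfra1 at 32.4 CPM (14.6 to 20.9) and Pvalb at 418 CPM (13.5 to 133), and skin model 6 for Piezo2 at 8.73 CPM (3.69 to 5.46). The response in skin differed from that in DRG, by edgeR's test of the difference, for Gfra2 (0.72), Etv1 (0.74), Cysltr2 (0.79) and Th (-1.38), log2 scale.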

How the results depend on the processing

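In DRG, 0 of the 34 genes were called higher and 0 lower in all 10 alternatives and in all 12 fits without 1 library, while calls over all genes ranged from 6 to 118 higher over the alternatives. In skin, 5 called higher became 3 with no filter and 3 with limma on log2(TPM + 0.1), and 1 to 5 without 1 library. Called lower in skin was 2 with DESeq2 (Lpar3 and Th), 4 in 1 fit of all 24 libraries, and 0 to 2 without 1 library. For the tissue difference, DESeq2 gave 5 higher and 2 lower, and single omissions 1 to 4 higher and 0 to 2 lower. With no filter, with at least 1 CPM in 6 libraries and with both limma settings, 0 were lower. Between control DRG and control skin, 0 were lower with no filter and with both limma settings, and 0 to 1 without 1 library. The cause was not tested. Over all genes in skin, 449 to 3404 were called lower over the alternatives and 308 to 2554 without 1 library.

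Signs changed in control DRG against control skin for 3 genes that were not called. Runx1 was 0.18 with limma on log2(TPM + 1) and 0.18 with log2(TPM + 0.1), and -0.095 to 0.042 without 1 library. Runx3 was 0.057 and 0.074 with the same settings of limma, and Whrn ranged from -0.0086 (without DRG control 5) to 0.24 without 1 library. On the limma scale the median of all genes moved from -0.02 to 0.10 (pseudocount 1) and 0.17 (pseudocount 0.1).

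Control and model libraries with the same title number did not vary together. The correlations of their deviations were -0.56 to -0.01 in DRG and -0.58 to 0.33 in skin. In each tissue 0 of 6 correlated best with their own number. The library names number the model samples otherwise than the titles do, so they give no basis for this pairing. Between skin and DRG of the same number the correlations were -0.09 to 0.12 in controls and -0.18 to 0.10 in model animals. There 2 of 6 controls and 1 of 6 model libraries correlated best with their own number. With a replicate block, DRG calls among the 34 were 0 and 0, skin calls 3 higher and 1 lower, the tissue difference 1 higher and 0 lower, and control DRG against control skin 0 lower. The 11 genes not tested in skin had too few counts for the filter, 4 of them 0 counts in all 12 skin libraries, and depth and absence of expression cannot be told apart there. In simulated counts the skin test recovered 18% of 1.5-fold changes. That simulation had 85 calls, against 2755 higher and 1137 lower in the data, so the share may not carry over.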
